A study of Mus musculus with 4 samples.

Results

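The 9 genes of giant and scaffold proteins that hold the sarcomere together were described by their open chromatin: Ttn, Neb, Nrap, Flnc, Xirp1, Xirp2, Mypn, Ldb3 and Myot. Every ATAC-seq peak that the authors assigned to 1 of these 9 genes by its nearest transcription start site (TSS) was taken. This gave 138 of the 120839 peaks in 4 lists and 9 of the 17157 genes with a peak. ATAC-seq uses a transposase to cut and tag DNA where nucleosomes leave it accessible. The lists came from whole muscle of sedentary wild-type mice, labelled C57BL/6, which the study's methods describe as male C57BL/6J mice bought at 7 to 8 weeks of age. They covered the fast extensor digitorum longus (EDL) and quadriceps (Quad), the slow soleus (Sol) and the diaphragm (Dia). One library per muscle was analysed here, each labelled as pooled, and the number of animals in a pool was not given in the sources used here. The legends give a range of samples per group, so some lists may combine replicates and others not. With 1 list per muscle no test between muscles was possible, and every difference describes these 4 libraries.

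Titin, the product of Ttn, is a giant elastic protein that runs from the Z-disc to the M-band of the sarcomere, and nebulin, the product of Neb, lies along the thin filament and helps to set its length. Both are anchored at the Z-disc, the plate where thin filaments of neighbouring sarcomeres are cross-linked. Ldb3, Mypn and Myot encode cypher (ZASP), myopalladin and myotilin, Z-disc proteins that bind alpha-actinin, and Flnc encodes filamin C, an actin cross-linker of the Z-disc and the cell membrane. Nrap encodes a nebulin-related anchoring protein, and Xirp1 and Xirp2 encode the Xin proteins, actin-binding repeat proteins of muscle attachment sites. All 9 genes are active in striated muscle, so their loci show whether the accessible DNA of shared structural genes is placed alike in muscles of different fibre type.

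The highest-scored peaks show what DNA is open at these loci. For 6 of the genes the peak with the highest score percentile is printed first, followed by 3 more regions that were chosen after their values were seen. The strongest Myot peak, at percentile 83.4 in EDL, is not printed, although it ranked above the Neb peak shown. All are RefSeq reference sequence of GRCm38 (mm10), written along the coding strand of the gene and in lower case, with capitals for the letters of motifs searched on both strands. These motifs were those of MEF2 and the CArG box, given by name alone, and an E-box with the letters CAGCTG. The MCAT element of TEAD factors has the letters CATTCC, AP-1 has TGACTCA, NFAT has TGGAAA and the oestrogen-related receptor (ERR) has TCAAGGTCA. Promoter peaks were cut at the GENCODE start of the gene, and only the bases upstream of it are shown.
The first is the EDL peak in intron 2 of Xirp2, at chr2:67481068-67481276 on the plus strand, 35.2 kb downstream of the TSS, which held none of these motifs.
Xirp2 intron: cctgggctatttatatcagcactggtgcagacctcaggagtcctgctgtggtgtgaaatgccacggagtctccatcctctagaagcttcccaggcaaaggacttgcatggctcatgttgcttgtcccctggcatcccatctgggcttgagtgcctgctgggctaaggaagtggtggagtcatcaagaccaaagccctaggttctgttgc
The Sol peak at the Ldb3 promoter, chr14:34588683-34588798 on the minus strand, held an AP-1 site and a CArG box, in this order.
Ldb3 promoter: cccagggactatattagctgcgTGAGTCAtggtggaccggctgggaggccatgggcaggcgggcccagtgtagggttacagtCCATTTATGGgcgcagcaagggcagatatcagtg
The EDL peak at the Ttn promoter, chr2:76982548-76982752 on the minus strand, held a MEF2 site.
Ttn promoter: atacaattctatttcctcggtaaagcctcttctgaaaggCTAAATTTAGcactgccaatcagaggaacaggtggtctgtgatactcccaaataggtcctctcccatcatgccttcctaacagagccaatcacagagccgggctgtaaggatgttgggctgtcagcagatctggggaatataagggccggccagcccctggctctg
The Quad peak 2.18 kb upstream of Flnc, chr6:29430876-29431064 on the plus strand, is intergenic and held 2 AP-1 sites.
Flnc upstream: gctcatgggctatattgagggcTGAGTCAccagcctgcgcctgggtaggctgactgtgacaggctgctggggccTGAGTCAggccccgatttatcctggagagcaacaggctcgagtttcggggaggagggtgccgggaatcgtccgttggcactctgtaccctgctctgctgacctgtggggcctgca
The Quad peak at the Xirp1 promoter, chr9:120024223-120024411 on the minus strand, held an MCAT element and an AP-1 site.
Xirp1 promoter: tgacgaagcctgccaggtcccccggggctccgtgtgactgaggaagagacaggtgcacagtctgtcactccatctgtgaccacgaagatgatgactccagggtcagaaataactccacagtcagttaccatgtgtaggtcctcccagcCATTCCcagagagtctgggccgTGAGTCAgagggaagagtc
The EDL peak in intron 3 of Neb, chr2:52331868-52332076 on the minus strand, held an NFAT site.
Neb intron: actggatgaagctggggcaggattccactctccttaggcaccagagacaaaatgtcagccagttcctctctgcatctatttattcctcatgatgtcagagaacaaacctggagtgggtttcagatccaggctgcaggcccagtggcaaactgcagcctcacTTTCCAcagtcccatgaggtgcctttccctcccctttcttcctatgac
The Sol peak 15.9 kb upstream of Ttn, chr2:76998365-76998571 on the minus strand, is the strongest intergenic peak of that gene and held an E-box.
Ttn upstream: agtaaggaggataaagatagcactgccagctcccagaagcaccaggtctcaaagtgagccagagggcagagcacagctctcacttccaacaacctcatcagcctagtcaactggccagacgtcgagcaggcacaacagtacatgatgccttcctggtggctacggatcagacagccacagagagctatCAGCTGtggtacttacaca
The EDL peak in intron 67 of Ttn, chr2:76807422-76807630 on the minus strand, lies in the gene body but was assigned to another gene, and held a CArG box.
Ttn deep intron: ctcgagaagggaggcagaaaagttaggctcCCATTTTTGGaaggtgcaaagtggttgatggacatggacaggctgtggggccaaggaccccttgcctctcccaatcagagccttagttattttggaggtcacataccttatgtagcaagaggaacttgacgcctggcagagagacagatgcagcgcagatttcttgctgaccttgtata
The Sol peak in intron 31 of Nrap, chr19:56336907-56337113 on the minus strand, was likewise assigned to another gene and held an MCAT element.
Nrap deep intron: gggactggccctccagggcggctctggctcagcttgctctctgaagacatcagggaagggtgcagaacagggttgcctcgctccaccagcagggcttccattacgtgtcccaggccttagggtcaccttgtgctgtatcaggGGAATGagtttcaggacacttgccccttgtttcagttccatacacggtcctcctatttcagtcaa

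Peaks at these genes were most numerous in EDL and fewest in Dia. Together the 9 genes had 42 in EDL and 41 in Quad, then 37 in Sol but only 18 in Dia. The lists themselves held 30136, 40337, 28784 and 21582 peaks, so per 10000 peaks the genes took 13.9 in EDL, 10.2 in Quad, 12.8 in Sol but 8.34 in Dia. Dia was thus lowest relative to list length too. When each list was cut to its top 20000 by score, the counts were 38, 32, 33 and 18 in the same order. In bulk tissue, fewer cells of a type and less accessible DNA per cell cannot be told apart.

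**Figure D1:**
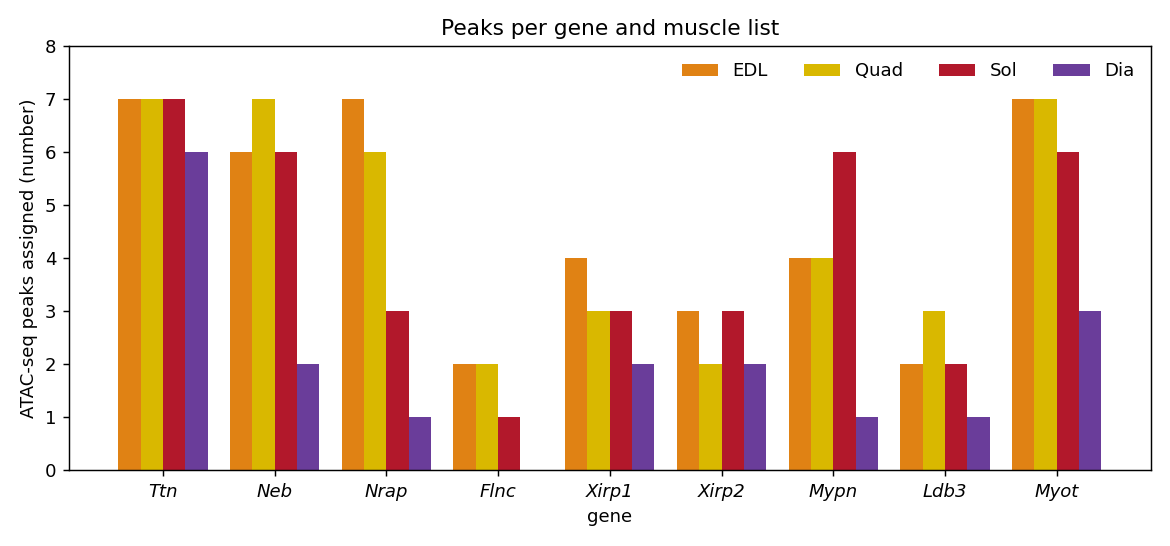
Number of ATAC-seq peaks assigned to each of the 9 genes (x axis) in the 4 muscle lists (bars, EDL orange, Quad yellow, Sol red, Dia purple; 1 library each, no error bars). Every gene had fewer peaks in Dia than in EDL, from 7 against 1 in Nrap to 7 against 6 in Ttn, and Mypn had its most peaks, 6, in Sol.

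Per gene, all 9 had more peaks in EDL than in Dia, against 36.8% of all genes with a peak, and all 9 had more in Sol than in Dia, against 35.1%. In Quad, 8 of 9 had more than in Dia, against 54.9%, and Xirp2 had 2 in both. Between Quad and Sol the genes were divided. Of the 9, 5 had more peaks in Quad, against 45.7% of all genes, 2 had equal numbers, and Mypn and Xirp2 had more in Sol. With 20000 peaks per list, 8 genes had more in EDL than in Dia, against 18.3% of all genes, 7 had more in Quad, against 18.8%, and 7 had more in Sol, against 17.9%. Quad and Sol were then level, with 2 genes higher in each, where 17.3% of all genes had more in Quad. The all-gene shares include genes with few peaks and were not matched for the number of peaks per gene. As many peaks as Ttn, Myot and Neb, or more, were held by 2.53%, 3.86% and 5.08% of all genes, and as many as Flnc by 50.7%. The part of peak number per gene in these contrasts was not tested.

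Ttn held 27 peaks in the 4 lists together, and 2.53% of all genes with a peak held as many or more. Its peaks numbered 7 in EDL, Quad and Sol and 6 in Dia, the most even count of the set. They fell into 10 regions, obtained by joining peaks of different lists that overlapped by at least 1 bp. Strength is given below as the score percentile, the rank of a peak's score within its own list on a scale from 0 to 100, because the authors scaled scores per library.

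The Ttn promoter region was open in every list and lay at percentile 93.5 in EDL, 87.4 in Quad, 87.5 in Sol but 71.9 in Dia. The intergenic region 15.9 kb upstream, whose Sol sequence is printed above, was about as strong as the promoter, at 89.2, 91.5, 92.6 and 71.9 in the same order. Both regions were strong in the 3 limb muscles and lower in Dia. Another region, 0.65 kb inside the gene in intron 1, reached 89.6 in EDL, 84.0 in Quad and 80.8 in Sol, and the nearest Dia peak, that of the promoter, was 0.527 kb away.

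Farther upstream, 6 regions with 14 peaks were assigned to Ttn although they lie inside introns of its neighbour Ccdc141, at 42.8 to 90.9 kb from the Ttn TSS. Their assignment to Ttn rests on the nearest TSS alone. Of the 6, 2 were open in every list. At 51.8 kb upstream the percentiles were 65.1 in EDL, 55.7 in Quad, 81.7 in Sol but 32.7 in Dia, with the highest value in Sol. The region 60.6 kb upstream had 71.3, 46.5, 60.3 and 28.1. Dia was lowest at both. The other 4 differed in which muscles held a peak. The region 54.9 kb upstream was open in EDL and Quad only, at 82.7 and 86.8, with the nearest Sol peak 2.81 kb away. The region 51.3 kb upstream was the single region of the whole set found in Sol and Dia only, at 72.7 and 35.4, but a Quad peak lay 0.285 kb from it. A Dia peak at 42.8 kb, percentile 52.5, was the only region seen in Dia alone, and a Sol peak at 90.9 kb, percentile 26.2, was found in Sol alone. Within the gene, intron 10 held a region in EDL and Quad only, at 74.0 and 54.5.

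Neb had 6 peaks in EDL, 7 in Quad, 6 in Sol but 2 in Dia, and none of the 21 was annotated as a promoter peak. That annotation follows the start of the curated mRNA. In the RefSeq annotation of GRCm38.p6, 28 of 29 Neb mRNA models, all of them predicted, start at position 52335761 of chromosome 2, which is 3.04 kb inside the curated gene. A region that the authors' annotation placed in intron 1, 3.02 kb downstream, contains this start. It had a peak in EDL, Quad and Sol at percentiles 70.2, 77.9 and 68.6 and none in Dia, where the nearest peak was 22.3 kb away. A neighbouring region, 3.46 kb downstream, was also open in the same 3 lists, at 82.4, 62.1 and 60.3. The peak centre nearest to the curated start itself was 2986 bp from it.

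The strongest Neb region, in intron 3, followed the same distribution, with 83.0 in EDL, 82.9 in Quad, 79.9 in Sol and no Dia peak within 26 kb. The only 2 Dia peaks of Neb lay upstream. At 19.5 kb upstream the percentiles were 55.2, 67.4, 42.7 and 25.0 from EDL to Dia, and at 32.6 kb they were 22.3, 59.0, 58.6 and 40.5. The authors' annotation calls both intergenic, while GENCODE vM21, whose Neb gene begins farther upstream, places them inside the gene. In intron 9 the EDL and Sol lists shared a region, at 74.0 and 69.9, and Quad had its own peak 0.09 kb away at 36.4. A Quad peak in intron 10, at 34.4, stood alone.

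Nrap, the nebulin-related gene, had the steepest decline in number, with 7 peaks in EDL, 6 in Quad, 3 in Sol but 1 in Dia. Its promoter was open in EDL, Quad and Sol at percentiles 59.5, 46.5 and 70.5. No Dia peak lay within 10 kb of the promoter. The region 0.668 kb into the gene had 72.4, 56.8 and 61.8 in the same lists. Both regions near the start were thus missing from the Dia list. The single Dia peak, at 59.2, lay 11.1 kb into the gene in intron 10. It overlapped an EDL peak at 50.7 in the same intron and a Quad peak at 70.5 that was annotated to an exon, and Sol had none. A further region over exon 28, 47.8 kb from the TSS, was open in EDL, Quad and Sol at 39.6, 56.8 and 60.3. The 3 regions found in a single list were weak to middling, at 40.9 and 50.7 in EDL and 20.8 in Quad, and a region in intron 18 was open in EDL and Quad only, at 24.0 and 55.7.

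Of the Z-disc scaffolds, Ldb3 had few but strong peaks. Its promoter scored 16.4 in EDL, 15.2 in Quad, 18.2 in Sol but 9.57 in Dia on the authors' scale, or percentiles 91.5, 89.8, 93.8 and 66.2. The exact Poisson interval of the inferred tags covers counting error only, and ran from 7.74 to 11.7 in Dia and from 12.6 to 18.2 in Quad, so the Dia value lay below the other 3. Beyond the promoter, the muscles shared little among the peaks assigned to Ldb3. Regions in its intron 8 and last exon, assigned to another gene and shared by some muscles, are given further below. EDL and Quad shared a region in an intron 14.3 kb downstream, at 75.8 and 81.3. Sol had a strong peak of its own 5.72 kb downstream, at 87.1, whose nearest neighbour in another list was the Dia promoter peak 5.58 kb away. Quad had a peak of its own 22.6 kb downstream, at 74.0.

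Mypn had its highest number of peaks in Sol, 6 against 4 in EDL, 4 in Quad and 1 in Dia. Its promoter was open in every list, at 69.6, 57.9, 57.8 and 36.8 from EDL to Dia. In introns 1 and 2, 4 regions were found in Sol alone, between 2.31 and 24.2 kb from the TSS, with percentiles 33.4, 17.6, 27.8 and 60.3. The excess in Sol thus came mainly from weak peaks, and 2 of these 4 remained among the 20000 highest-scored peaks, where Mypn had 4 peaks in Sol against 3 in EDL and 2 in Quad. Intron 6, about 46 kb from the TSS, held a region in EDL and Quad only at 74.9 and 56.8 and, 0.928 kb from it, a region in EDL and Sol at 42.1 and 32.0. An intron 2 region, open in EDL and Quad only, was weak at 28.6 and 14.9, and a Quad peak 0.728 kb into the gene had 25.8.

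Myot had 7 peaks each in EDL and Quad, 6 in Sol but 3 in Dia, most of them upstream of the gene. Its promoter was open in EDL and Sol only, at 81.4 and 51.9, and the nearest Quad peak was 3.49 kb away. It had 3 regions open in every list. In intron 4, about 10 kb downstream, the percentiles fell from 83.4 in EDL through 70.5 in Quad and 64.6 in Sol to 31.1 in Dia. The region 10.7 kb upstream had 79.4, 76.4, 53.7 and 56.0, and that 17.8 kb upstream had 70.7, 71.2, 58.6 and 23.4. EDL and Quad were ahead of Dia at all 3. The regions 18.5 and 22.6 kb upstream were open in EDL, Quad and Sol, with 77.6, 73.3 and 79.9 at the nearer one and 57.9, 64.0 and 79.9 at the farther one. GENCODE starts a long noncoding RNA, AC132130.1, 66 bp from the nearer region. In intron 2, EDL and Quad each had a peak, at 82.1 and 73.3, that missed each other by 0.106 kb. A Quad peak 8.38 kb upstream stood alone at 32.4.

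Flnc was the gene with the fewest peaks, 2 each in EDL and Quad, 1 in Sol and none in Dia. A total of 5 is common, as 50.7% of all genes with a peak held as many or more. No promoter peak was found at either RefSeq start of the gene. The region 2.18 kb upstream, printed above with its 2 AP-1 sites, was nevertheless strong, at 80.3 in EDL, 90.7 in Quad and 87.1 in Sol. The nearest Dia peak was 36.5 kb away. EDL had a further peak in intron 1, 1.29 kb downstream, at 82.1, and Quad had one 9.71 kb upstream, inside the last intron of Ccdc136, at 30.2.

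The Xin genes differed from each other in the Dia list. Xirp2 had a promoter region open in every list, at 70.2 in EDL, 70.5 in Quad, 76.2 in Sol but 25.0 in Dia. Its intron 2 region, 35.2 kb downstream, held the highest percentile of the whole set, 94.5 in EDL, followed by 82.9 in Quad, 80.8 in Sol and 42.9 in Dia. Scores there were 19.1 (counting interval 16.6 to 22.0) in EDL and 6.85 (5.32 to 8.68) in Dia. The remaining Xirp2 peaks were an EDL peak at 30.1, 0.999 kb downstream, and a Sol peak at 11.4, 23.0 kb upstream, each in 1 list.

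Xirp1 had no promoter peak in Dia, whereas EDL and Sol had 2 and Quad had 1. The region 0.719 kb upstream had 71.8 in EDL, 84.4 in Quad and 77.0 in Sol, and that 0.21 kb upstream had 61.8 in EDL and 75.2 in Sol. A region 4.13 kb upstream was open in EDL, Quad and Dia, at 67.1, 76.4 and 45.3. The region 12.3 kb downstream of the TSS, past the end of this short gene, was level across all lists, with percentiles 82.4, 77.9, 83.4 and 81.2. Its scores of 12.2, 10.8, 12.6 and 12.8 had overlapping counting intervals, from 8.58 to 13.3 in Quad and from 10.7 to 15.2 in Dia. It was the strongest Dia peak of the 9 genes, and GENCODE starts a noncoding RNA, Gm49427, 1.51 kb from it.

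**Figure D2:**
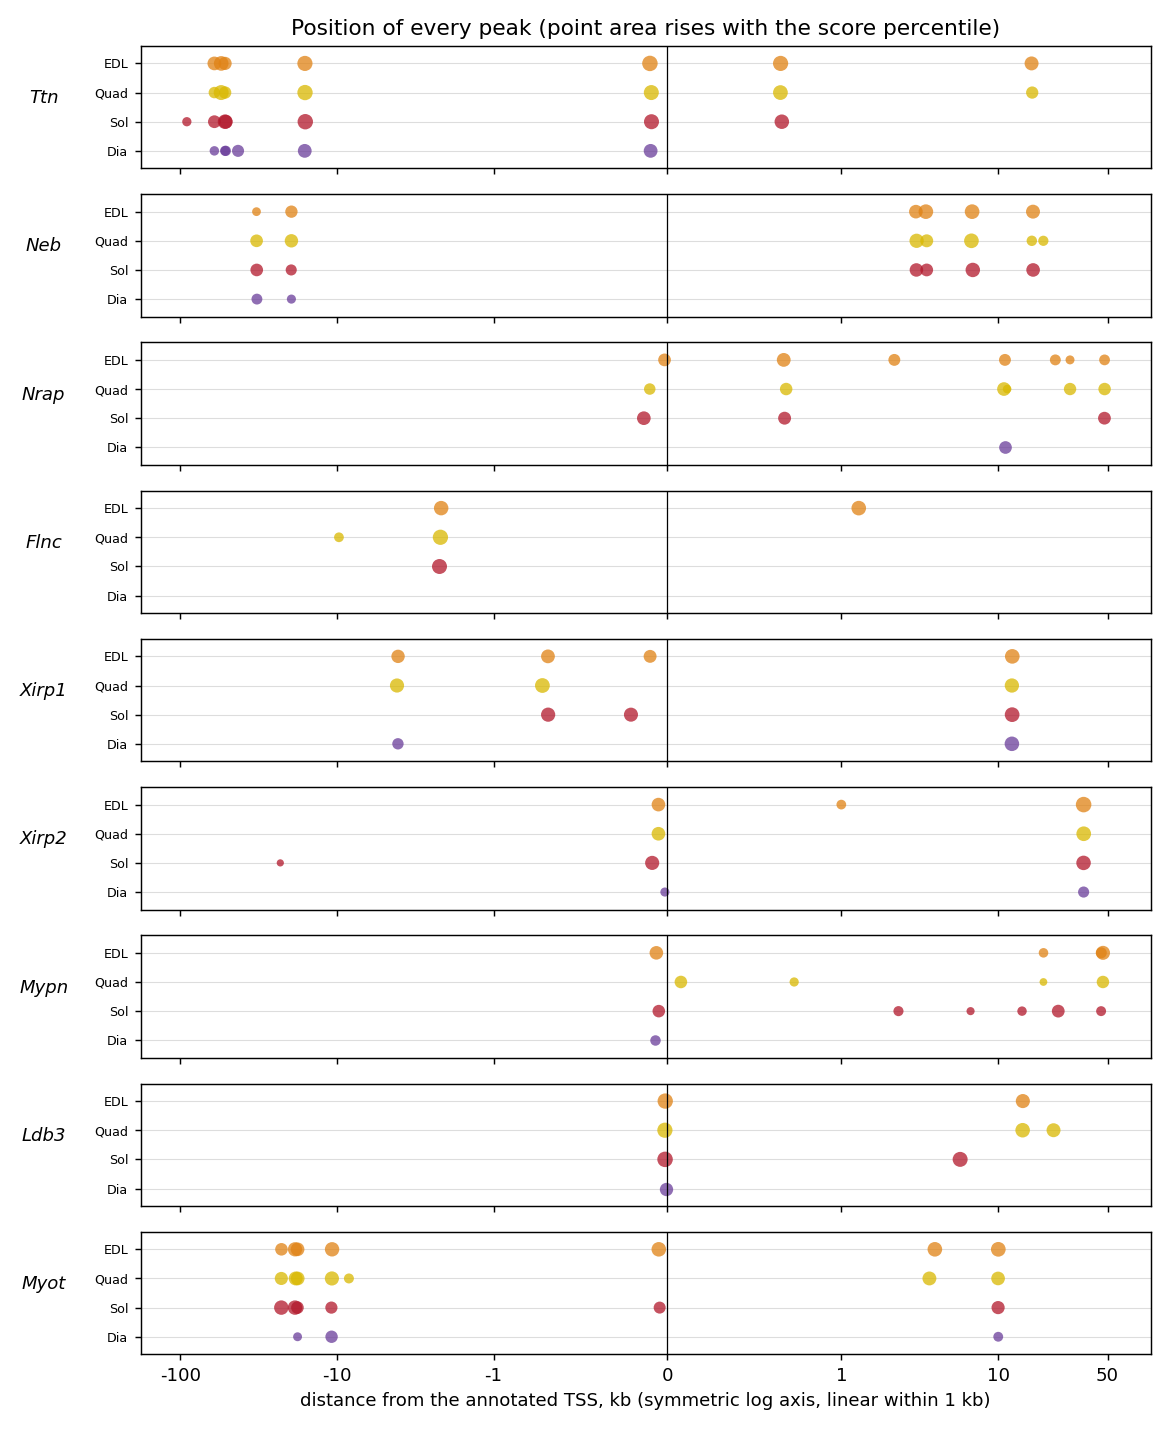
Distance of each peak from the annotated TSS of its gene in kb (x axis, symmetric log scale that is linear within 1 kb, upstream negative), in 1 row per muscle list and 1 panel per gene, with point area rising with the score percentile. Neb and Flnc have no point at the TSS, Myot has most of its points 8.38 to 22.6 kb upstream, and in every panel the Dia row has the fewest points, level with Quad in Xirp2.

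Promoter peaks were found at 7 of the 9 genes in EDL, 6 in Quad, 7 in Sol but 4 in Dia. Among all genes with a peak in any list the shares were 51.8%, 56.8%, 51.5% and 50.5%, and the counts in Quad and Dia were within 1 gene of them. A promoter peak was present at 4 of the 9 genes (Ttn, Xirp2, Mypn and Ldb3) in every list, against 40.8% of all genes. When every RefSeq mRNA start was allowed, a choice made after seeing the data, Neb joined in EDL, Quad and Sol, which gave 8, 7 and 8 genes, and Dia stayed at 4.

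Despite this, most peaks of the 9 genes lay away from promoters. Promoters held 19.0% of the peaks in EDL (95% Wilson interval 9.98% to 33.3%), 14.6% in Quad (6.88% to 28.4%), 21.6% in Sol (11.4% to 37.2%) and 22.2% in Dia (9.001% to 45.2%). The whole lists had 30.7%, 25.5%, 31.9% and 41.3%, which fell inside all 4 intervals. Intragenic peaks made up 57.1% in EDL, 58.5% in Quad, 51.4% in Sol but 38.9% in Dia. The whole-list intragenic shares were 39.4%, 42.7%, 38.0% and 31.9%. They lay just below the intervals of the 9 genes in EDL (42.2% to 70.9%) and Quad (43.4% to 72.2%) and within those of Sol and Dia. The intragenic class counts peaks inside a neighbouring gene too, among them the 14 Ttn peaks in Ccdc141 introns and the Flnc peak in Ccdc136. The intervals also treat peaks of the same gene as independent, so no excess of peaks within these genes can be read from them.

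The peaks of these genes ranked higher within the whole limb muscle lists than within the Dia list. Their median percentile was 72.1 in EDL (95% interval from order statistics 67.1 to 79.4), 70.5 in Quad (56.8 to 76.4), 68.6 in Sol (60.3 to 77.0) and 41.7 in Dia (31.1 to 59.2). In a whole list the median is 50 by construction. Of the peaks, 35 of 42 in EDL, 32 of 41 in Quad, 30 of 37 in Sol and 7 of 18 in Dia lay above it. High values were not limited to promoters. Intragenic peaks of the 9 genes had a median percentile of 73.2 in EDL, 56.8 in Quad and 61.8 in Sol, against 40.9, 41.8 and 40.5 for intragenic peaks of the whole lists, and in Dia both medians were 35.4. Intergenic peaks of the 9 genes had 74.2 in EDL, 73.3 in Quad, 69.3 in Sol but 45.3 in Dia, all above the 35.7, 36.4, 34.6 and 31.1 of intergenic peaks in the whole lists. Promoter peaks had 71.0, 77.4, 75.7 and 51.5, against 76.3, 81.3, 75.7 and 74.1 for all promoter peaks of those lists. The medians also depended on where a list was cut. Ranking anew within a cut list lowers the percentile of every kept peak by construction, most in Quad, the longest list. Such medians are therefore not comparable with those of the full lists, although 50 is again the median of each cut list. Among the top 20000 peaks of each list, ranked anew, they were 60.7 in EDL, 46.2 in Quad (27.3 to 62.3), 57.5 in Sol and 37.1 in Dia, so that Quad was not above 50. In the upper 50% of each list all 4 were below 50, at 49.8, 46.6, 47.9 and 32.5.

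**Figure D3:**
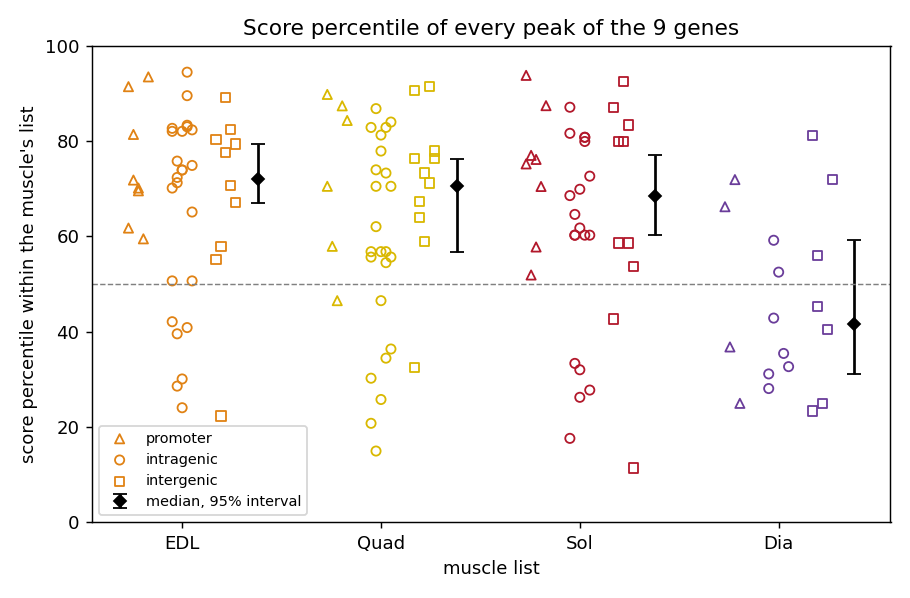
Score percentile within its own list (y axis) of every peak of the 9 genes in the 4 muscle lists (x axis), drawn by annotation class, with the median and its 95% order-statistic interval as a black diamond and bar and the list median as a dashed line. The medians of EDL, Quad and Sol lie at 72.1, 70.5 and 68.6 and that of Dia at 41.7.

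Joined across lists, the 138 peaks formed 59 regions. Of these, 14 were open in every list, or 23.7% (Wilson interval 14.7% to 36.0%), against 26.9% of all 53883 regions, so sharing by all 4 muscles was near the background. Such a region was found at 7 genes, and Nrap and Flnc had none. The next largest class was open in EDL, Quad and Sol but not Dia, with 11 regions or 18.6%, against 8.09% of all regions. In these 11 the median percentile was 72.4 in EDL, 73.3 in Quad and 77.0 in Sol. For 2 of the 11 a Dia peak lay within 1 kb, and the largest distance to a Dia peak was 36.5 kb. They belonged to Neb and Nrap with 3 each, Myot with 2, and Flnc, Ttn and Xirp1 with 1 each.

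A single list held the peak in 21 regions, 35.6% of the 59 against 42.6% of all regions. Quad had 8 of them, or 13.6% of the 59 regions against 22.7% of all, Sol 7 (11.9% against 8.62%), EDL 5 (8.47% against 6.71%) and Dia 1 (1.69% against 4.61%). Their median percentiles were 33.4 in Quad, 27.8 in Sol and 50.7 in EDL, and the Dia region was at 52.5. Of the 21, 8 lay above percentile 50, and 6 had a peak of another list within 1 kb. The Ldb3 peak of Sol, at 87.1, and the Flnc and Myot peaks of EDL, both at 82.1, lay above percentile 80. Regions open in EDL and Quad only numbered 6, in Ttn, Mypn, Ldb3 and Nrap, or 10.2% against 8.05% of all, and those in EDL and Sol only numbered 4, or 6.78% against 2.11%.

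Between pairs of muscles, EDL and Quad shared the largest part of their regions, 66% (52.1% to 77.6%), where all regions of that pair gave 51.6%. EDL and Sol shared 58.0% against 52.7%, and Quad and Sol 47.2% against 44.8%. Pairs with Dia shared less, 36.4% with EDL against 46.7%, 37.2% with Quad against 38.3% and 37.5% with Sol against 48.6%. Only the EDL and Quad background lay outside the interval of its pair, by less than 1 percentage point. Dia regions were mostly contained in the other lists, as 88.9% of them were found in EDL, 88.9% in Quad and 83.3% in Sol. This held for the Dia list as a whole too, with 76.3%, 79.5% and 76.3%. The reverse shares, of EDL, Quad and Sol regions found in Dia, were 38.1%, 39.0% and 40.5%, against 54.6%, 42.5% and 57.2% over all regions.

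Where all 4 muscles had a peak, Dia still ranked lowest. In 11 of the 14 regions open in every list Dia had the lowest percentile, against 52.3% of all such regions, and it was highest in none. EDL was highest in 6 of 14, against 18.4%, Sol in 5, against 17.6%, and Quad in only 3, against 57.5%. Over the 14 regions the median percentile was 75.3 in EDL, 70.9 in Quad, 70.4 in Sol but 38.6 in Dia. All regions open in every list had medians of 71.3, 78.4, 71.1 and 63.5. At the regions shared by a pair, EDL exceeded Dia in 14 of 16 with a median difference of 27.8 percentile points. Over all regions of that pair EDL was higher in 66.6%, with a median difference of 3.46. Sol exceeded Dia in 14 of 15, by a median of 27.6, against 68.3% and 3.89 over all. Quad exceeded Dia in 15 of 16, which was near the 84.0% over all, by a median of 22.1 against 9.76. Without promoters, the difference from Dia was 26.8 for EDL against 8.21 over all, 32.2 for Sol against 9.86, and 21.7 for Quad against 15.2. With promoters included, EDL and Sol were close. EDL was higher in 16 of 29 shared regions, by a median of 3.09, against 49.8% and -0.0295 over all. EDL exceeded Quad in 18 of 33, by a median of 1.63, against 28.1% and -5.51 over all. Quad exceeded Sol in 13 of 25, by a median of 0.139, against 71.3% and 5.11.

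**Figure D4:**
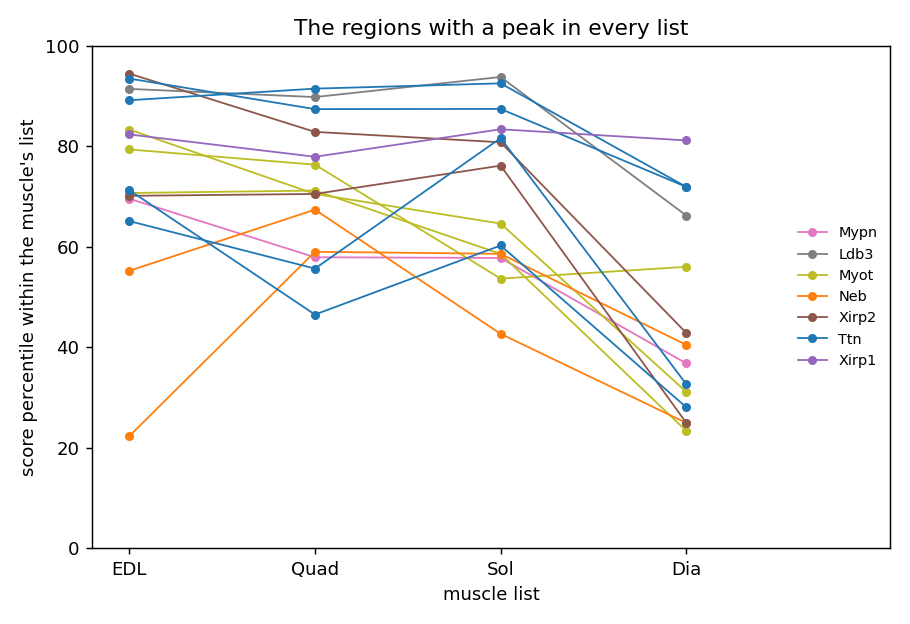
Score percentile within each muscle's list (y axis) of the 14 regions with a peak in every list, 1 line per region coloured by gene (x axis, the 4 muscle lists). Most lines drop at Dia, while the Xirp1 region stays at 82.4, 77.9, 83.4 and 81.2, and the Ttn promoter and the region upstream of it end at 71.9.

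Because peaks were assigned to the nearest TSS, the far parts of the longest genes were credited to their neighbours. A further 10 regions with 25 peaks lay inside the bodies of 5 of the genes but carried another gene's name, 9 peaks in EDL, 8 in Quad, 5 in Sol but 3 in Dia. Ttn introns 66 and 67, about 174 kb into the gene, had peaks named for Plekha3 at a distance of over 132 kb. The intron 67 region, printed above with its CArG box, reached percentile 92.0 in EDL and 89.0 in Quad and had no peak in Sol or Dia. Its neighbour had 84.7 in EDL, 78.4 in Quad and 54.2 in Dia, and none in Sol. With these included, the Ttn body had 4 peaks each in EDL and Quad and 1 each in Sol and Dia.

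The other such regions varied by muscle as well. In Nrap, the intron 31 region named for Habp2 was at 88.0 in Sol and 25.6 in EDL, with none in Quad or Dia, and it was the strongest Sol peak of that gene. Ldb3 had a region in intron 8 at 83.0 in EDL, 86.2 in Quad and 67.5 in Dia, with none in Sol, and a weak one over its last exon in EDL and Quad. Mypn had one in intron 13, named for Atoh7, at 75.4 in EDL, 70.5 in Quad, 77.5 in Sol but 28.1 in Dia, again lowest in Dia. Neb had 3 regions in introns 48, 52 and 72, all open in EDL and Quad, 2 of them in Sol and none in Dia, at percentiles from 16.1 to 71.2.

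AP-1 and MEF2 letters were more frequent among the 59 regions than among all regions. AP-1 sites, bound by JUN and FOS proteins, were in 12 regions or 20.3%, against 8.41% of all regions. MEF2 sites, bound by MEF2 factors that drive muscle structural genes, were in 8 or 13.6%, against 4.38%. At promoters, a class of only 8 regions, the contrast was larger. Of the 8, 4 held an AP-1 site (Ldb3, Xirp2 and both of Xirp1), against 3.16% of all promoter regions. A MEF2 site was in 3 of the 8 (Ttn, Xirp2 and the nearer Xirp1 region), against 1.28%. Away from promoters AP-1 was in 8 of 51 regions, 15.7% against 9.88%, and MEF2 in 5, 9.80% against 5.24%.

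Of the other motifs, the E-box was in 17 regions or 28.8%, against 23.4%, MCAT in 11 or 18.6%, against 14.5%, and NFAT in 11 or 18.6%, against 21.8%. MCAT also differed by class, with 3 of 8 promoter regions, 37.5% against 9.87%, and 8 of 51 other regions, 15.7% against 15.8%. The CArG box was in 2 or 3.39%, those of the Ldb3 promoter and Mypn intron 6, against 1.30%, and the ERR letters were in none, against 0.496%. Per list, AP-1 was in 19.0% of the EDL peaks of the 9 genes, 17.1% of Quad, 24.3% of Sol and 16.7% of Dia, against 7.23%, 6.89%, 7.34% and 6.86% of whole lists, with Wilson intervals that overlapped between all muscles. Median GC content was lower at these genes than in the lists, from 50.2% against 54.5% in EDL to 49.8% against 56.7% in Dia, and its part in the motif shares was not tested. Regions were not matched for length either. A match is a run of letters only, and binding was not measured.

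Other sarcomere and Z-disc genes also had the fewest peaks in Dia, but Dia is the shortest list. Set against list length, their 92 of 21582 Dia peaks were only just below 179 of 40337 for Quad. EDL and Sol were higher, with 140 of 30136 and 157 of 28784. The 9 genes had 8.34 per 10000 peaks in Dia against 10.2 for Quad. The counts given next were not scaled to list length. Of a list of 43 such genes, 42 had a peak in EDL, 40 in Quad, 39 in Sol and then 36 in Dia, with 140, 179, 157 and 92 peaks in all. Promoter peaks were found at 29, 34, 29 and 24 of them, where the shares over all genes with a peak were 51.8%, 56.8%, 51.5% and 50.5%. More genes had a higher number in EDL than in Dia, 24 against 4 with 15 equal, and in Sol than in Dia, 30 against 5 with 8 equal. Of all genes with a peak, 36.8% had more in EDL than in Dia and 35.1% had more in Sol than in Dia. Between EDL and Quad, 6 had more in EDL and 22 more in Quad with 15 equal, where 3 and 2 of the 9 genes did so with 4 equal. The peaks of these genes ranked alike in every list, with median percentiles of 58.2, 56.8, 59.4 and 55.6 from EDL to Dia, where the 9 genes had 41.7 in Dia. Myom2, which encodes an M-band protein that binds titin, had 6 peaks in EDL, 8 in Quad, 3 in Sol but 1 in Dia. Actn2, the alpha-actinin of all striated fibres, had its most in Sol, 6 against 2, 3 and 1 in EDL, Quad and Dia. Lmod3, a thin-filament nucleator, had 5, 4, 5 and 6 peaks and so was not lower in Dia.

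Cell type markers were too few to give a clear picture of the tissue. Of 6 muscle fibre markers, 3 had a promoter peak in EDL, 4 in Quad and 2 each in Sol and Dia, and Ckm, the muscle creatine kinase, had one in every list. Of 4 endothelial markers the numbers were 3, 4, 3 and 1. Smooth muscle markers had 1, 2, 0 and 0 of 3, and fibro-adipogenic markers had 1 of 3 in Sol alone. None of 4 leukocyte, 2 satellite cell, 2 Schwann cell and 2 heart markers had a promoter peak in any list. Kdr was the endothelial marker with a promoter peak in Dia, and it had 8 Dia peaks in all. Pecam1, Cdh5 and Tek had 3, 2 and 3 Dia peaks, none of them at the promoter. Of all genes with a peak in any list, 50.5% had a promoter peak in Dia. With 4 endothelial and 6 muscle fibre markers, a departure from such a share cannot be read. The part of tissue makeup in the Dia values was not tested. Depth inferred from the scores was 104 M tags in EDL, 78.1 M in Quad, 105 M in Sol and 99.3 M in Dia. The lowest-scored peak held 34, 25, 32 and 36 tags in the same order, most in Dia. The part of depth and calling threshold in the Dia values was not tested.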

How the data were processed

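One ATAC-seq peak list per muscle was used. Per the labels and the study's methods, frozen muscle was pulverised, nuclei were transposed, reads were aligned to mm10 with Bowtie2, and HOMER called fixed-width peaks in each library and annotated them to the nearest TSS. A promoter peak lay between 1 kb before and 100 bp after a TSS. The authors deposited a score per peak, tags scaled to library size, and the signed distance to the TSS. A Tn5 shift was not given in the sources used here.

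From these files peaks of the 9 genes were taken by gene name, scores were ranked within each list, and peaks overlapping by at least 1 bp were joined into regions with Python 3.11.15, pandas 2.3.3 and SciPy 1.17.1. Shares carry 95% Wilson intervals. Below a score of 10, scores were whole multiples of 1 step per list, which gave tags if scores are per 10 M tags. Peak width and threshold differed by list (width in EDL 208 bp, Quad 188 bp, Sol 206 bp, Dia 232 bp), so a missing peak means only that none was called. Sequences and gene models came from GRCm38.p6 (RefSeq) and GENCODE vM21. Joining was tested on simulated peaks.

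The genes, gene lists, motifs and settings were chosen with earlier results of these data known. All 9 genes are named, with their promoter regions, their strongest region, and regions open in every list, in 1 list, in EDL and Quad only or in Sol and Dia only. Alternatives were 20000 peaks per list, the upper 50%, assignment by gene body, a 50 kb limit, 50% reciprocal overlap, joining within 500 bp, and promoters within 1 kb on either side or by any RefSeq start.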

Additional observations from a re-analysis of the deposited data

How the results depend on the processing

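No paired analysis was possible because each muscle had a single library here. The order of muscles depended on list length for some values. With 20000 peaks per list the number of peaks in Quad minus that in Sol turned from 4 to -1, EDL minus Quad rose from 1 to 6, Quad minus Dia fell from 23 to 14, and regions in a single list fell from 21 to 11. Ranked within those shorter lists, the median percentiles were 60.7, 46.2, 57.5 and 37.1, from EDL to Dia. With the upper 50% of each list, Dia held 7 peaks, EDL minus Quad was 3 and Quad minus Sol 2. The medians within those shorter lists were 49.8, 46.6, 47.9 and 32.5 in the same order, 10 regions were in a single list, and 11.4% were open in every list. Sharing with Dia then fell to 16.7% for EDL, 18.2% for Quad and 15.6% for Sol. With 20000 peaks those shares were 36.6%, 42.9% and 41.7%. Ranking anew lowers the percentile of every kept peak by construction, so the medians of cut lists are not comparable with those of full lists. The upper 50% kept only 7 of the 18 Dia peaks, which limits how many regions could be shared with Dia. The cause of the other changes was not tested. With peaks taken by gene body, EDL minus Quad was 4 and EDL minus Sol 10. At 50% reciprocal overlap EDL and Sol shared 43.6%. All 26 values compared under the 50 kb limit, the 8 under joining within 500 bp, and the 4 promoter shares under each other promoter definition stayed within 1.5 times the main count or inside its interval. Thresholds of 25 to 36 tags limit what each list can show, and a single library gives no replicate spread.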

Other observations

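Genes with the same or nearly the same peak numbers over the 4 lists were looked up for the members with at least 8 peaks, as a description over 4 values. Neb, with 6, 7, 6 and 2 peaks in EDL, Quad, Sol and Dia, had the same numbers as 3 other genes, E130006D01Rik, Gm5083 and Nova1. Myot, with 7, 7, 6 and 3, matched Foxk1 and Pgrmc2. The nearest to Mypn, 1 peak apart, were Myf6, a myogenic regulatory factor with 4, 4, 6 and 2 peaks, and Rbm24, which encodes a muscle RNA-binding protein, with 4, 5, 6 and 1. Those nearest to Ttn, also 1 peak apart, included Atf7ip, Cd28 and Gipc2. Those nearest to Nrap, again 1 peak apart, numbered 6. They included Adcy2, Bach2os and Capn3, the muscle calpain that binds titin, each with 6, 6, 3 and 1. For Xirp1, Xirp2 and Ldb3 the counts were too small to separate genes, as 22, 20 and 110 others had the same numbers.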
